A study of Homo sapiens with 6 samples.

Results

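Genes of mitochondrial complex I were described in RNA-seq data of HEK293FT cells. The members were all rows of the deposited expression table whose gene name starts with NDUF, without rows described as pseudogenes or antisense genes. Of 58884 listed genes, 110 had such a name. Leaving out 59 pseudogene rows and 2 antisense rows gave 49 members: 37 complex I subunits, 8 assembly factors of the NDUFAF series and 4 further genes. Those 4 were NDUFA4, its paralog NDUFA4L2, the read-through transcript NDUFC2-KCTD14 and the non-coding NDUFA6-DT. The pseudogene rows took little of the signal, with 46 of 59 listed at 0 in all 6 libraries and a highest value of 2.75 TPM.

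HEK293FT is an established human embryonic kidney line that carries the SV40 large T antigen. The ISLR-labelled libraries came from cells kept for 72 h with supernatant holding secreted ISLR, a leucine-rich repeat protein known from stromal cells (n = 3). The NC-labelled libraries came from cells kept equally long with supernatant of an empty vector control (n = 3). Both groups share the cell line and a medium with serum, and the labels name no further agent. The values are TPM, an abundance corrected for transcript length and for the library total, so the depth of the libraries is unknown and no counting error can be given.

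The ISLR transcript went against the labels, which touches the direction of every difference given here. ISLR mRNA had 0, 0.02 and 0 TPM in the ISLR-labelled libraries, against 510.32, 555.37 and 535.06 TPM in NC-labelled ones. The groups are therefore called by their labels throughout. Markers known from HEK293 cells were listed above 0, PAX2 at a level near 1 TPM: VIM averaged 1245 TPM in ISLR-labelled libraries and 1128 TPM in NC-labelled ones, and the 5 markers summed to 1478 ± 29.5 TPM (ISLR) and 1319 ± 15.6 TPM (NC; SD, n = 3 each). VIM makes up most of that sum. PAX2, of the same list, averaged 0.903 TPM in ISLR-labelled and 1.38 TPM in NC-labelled libraries without overlap, and LIN28B overlapped between the groups. The 10 markers of fibroblasts, leukocytes and endothelium summed to 24.3 ± 0.737 TPM in ISLR-labelled libraries and 20.7 ± 2.27 TPM in NC-labelled ones. Nearly all of it was COL1A1 (11.5 TPM in ISLR, 11.3 in NC) and CD68 (11.7 TPM in ISLR, 7.59 in NC), with the other 8 under 1 TPM. Their part in the results was not tested.

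Complex I takes electrons from NADH, passes them along a flavin and a chain of iron-sulphur clusters to ubiquinone, and pumps protons across the inner mitochondrial membrane. A conserved core does the catalysis: its hydrophilic part is encoded in the nucleus and its membrane part, the ND proteins, in mitochondrial DNA. Around the core sit supernumerary subunits, and assembly factors bind the parts during construction and leave the finished enzyme. In human cells, promoters of nuclear respiratory genes are known to be bound by NRF1, YY1 and factors of the ETS family.

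Promoter sequence is shown for 4 subunits with such a motif, a pair that stood low in the ISLR-labelled libraries (NDUFA3, NDUFA12) and the pair with the highest differences (NDUFA8, NDUFS1). Each is the RefSeq window on GRCh38.p14 from 250 bases before to 50 after the start of the gene, given 5′ to 3′ on the strand of the gene, with capitals on the match to NRF1 (GCGCA, any base, GCGC) or, in NDUFS1, to ETS (CCGGAAGT, here on the other strand). The windows are chr19:54102605-54102904 (NDUFA3, plus strand), chr12:95003648-95003947 (NDUFA12, minus strand), chr9:122159730-122160029 (NDUFA8, minus strand) and chr2:206159395-206159694 (NDUFS1, minus strand).
NDUFA3: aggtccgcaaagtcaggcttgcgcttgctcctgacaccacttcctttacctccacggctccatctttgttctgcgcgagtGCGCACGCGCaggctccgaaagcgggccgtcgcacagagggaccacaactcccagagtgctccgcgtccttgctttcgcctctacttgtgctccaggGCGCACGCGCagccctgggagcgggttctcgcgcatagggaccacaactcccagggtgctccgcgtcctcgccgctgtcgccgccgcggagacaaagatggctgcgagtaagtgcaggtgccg
NDUFA12: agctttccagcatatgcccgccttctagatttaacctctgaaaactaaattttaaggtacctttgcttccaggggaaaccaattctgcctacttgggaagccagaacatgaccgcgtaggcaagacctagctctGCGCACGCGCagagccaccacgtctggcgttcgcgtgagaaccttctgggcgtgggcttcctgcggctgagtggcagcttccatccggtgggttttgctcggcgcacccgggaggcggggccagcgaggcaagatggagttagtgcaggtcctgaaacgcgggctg
NDUFA8: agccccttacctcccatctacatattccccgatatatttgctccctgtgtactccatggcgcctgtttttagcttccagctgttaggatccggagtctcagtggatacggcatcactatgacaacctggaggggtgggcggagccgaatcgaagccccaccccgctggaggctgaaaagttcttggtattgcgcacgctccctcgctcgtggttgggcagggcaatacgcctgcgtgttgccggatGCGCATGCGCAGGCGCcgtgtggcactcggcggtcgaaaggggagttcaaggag
NDUFS1: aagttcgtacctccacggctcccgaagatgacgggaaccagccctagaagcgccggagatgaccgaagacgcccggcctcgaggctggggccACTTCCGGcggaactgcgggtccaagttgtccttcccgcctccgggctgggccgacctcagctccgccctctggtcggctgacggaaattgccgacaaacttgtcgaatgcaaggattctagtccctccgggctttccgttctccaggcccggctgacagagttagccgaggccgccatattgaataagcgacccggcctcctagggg
NDUFA3 and NDUFA8 held a pair of NRF1 matches each, which overlap in NDUFA8, and NDUFA12 held 1.

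A RefSeq window was matched for 41 members, 32 of them subunits. With both strands searched, NRF1 matches were in 6 of 32 subunit windows (18.75%), against 6.28% of the windows of 27305 genes. Those 27305 genes were not matched to the subunits by level or gene type, here and for the other motifs. The YY1 motif AAGATGGCG was in 5 subunit windows (15.6%), against 1.85% of all. ETS matches were in 2 subunit windows (6.25%), against 4.44% of all. At least 1 of the 3 motifs was in 12 subunit windows (37.5%), against 11.5% of all, and in 1 of 7 NDUFAF windows, that of NDUFAF5. NDUFA9 held both an NRF1 and a YY1 match, which did not overlap. The 4 printed genes were chosen for low or high folds, so their windows cannot show whether a match goes with a direction. Of the 6 subunits with an NRF1 match, NDUFA8 had a log2 fold above the median of all tested genes, by 0.27. NDUFA3 (-0.49), NDUFA12 (-0.43), NDUFA9 (-0.34), NDUFA11 (-0.31) and NDUFB4 (-0.07) lay below it. Whether a match goes with a difference was not tested. A match is a run of letters, not a binding site.

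Complex I subunits were strongly expressed in both groups. Among the 36 tested subunits the median level was 164 TPM in ISLR-labelled libraries and 182 TPM in NC-labelled ones, against 10.9 TPM (ISLR) and 8.90 TPM (NC) over all 13869 tested genes. They also varied little between libraries of a group, with a median coefficient of variation of 4.39% (ISLR) and 4.05% (NC), against 8.31% (ISLR) and 8.98% (NC) over all tested genes. The tested genes were not matched for level here, and the part of level in this spread was not tested. Neither trait was particular to complex I. The 38 nuclear subunits of complexes II to V had medians of 269 TPM (ISLR) and 308 TPM (NC). Their median coefficient of variation was 3.96% (ISLR) and 3.73% (NC). Mean levels differed widely between complex I subunits. NDUFS5 was the highest at 693 TPM (ISLR) and 745 TPM (NC), and NDUFV3 the lowest tested one at 19.7 TPM (ISLR) and 16.9 TPM (NC). NDUFA6, a small subunit of the matrix arm, was the single subunit, and the single one of 49 members, that missed the filter of 1 TPM in 3 libraries and was not tested: it was listed at 0.41, 1.19 and 1.63 TPM in ISLR-labelled libraries, against 0, 0.63 and 0 TPM in NC-labelled ones. Its values overlap between the groups and lie far under those of all other subunits. Whether counting or annotation plays a part was not tested, so the row may not give the true level of NDUFA6.

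**Figure D1:**
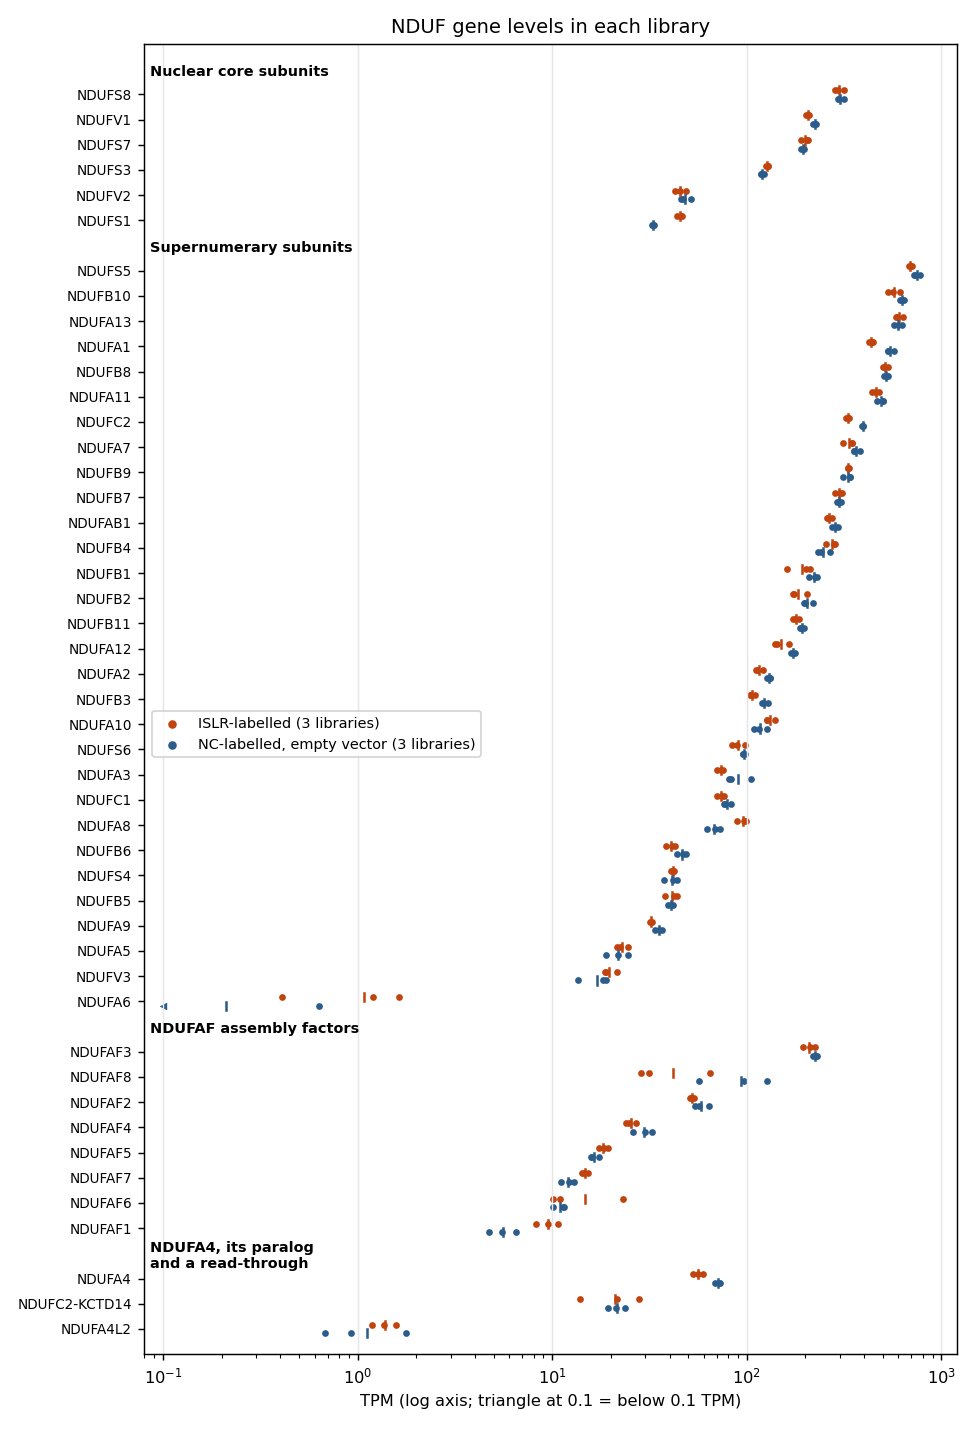
TPM of the members drawn (log axis) in the 3 ISLR-labelled libraries and the 3 NC-labelled ones; points are libraries and short lines are group means, by role and level. NDUFS5 tops the subunits at 693 TPM (ISLR) and 745 TPM (NC), NDUFA6 lies near 1 TPM or below, and NDUFAF8 and NDUFAF6 scatter between libraries.

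Differences were tested with limma on log2(TPM + 1), in the ISLR-labelled libraries minus NC-labelled ones, with Benjamini-Hochberg adjusted p under 0.05 over all tested genes. Because of the added 1, these log2 folds understate the change of low genes. Over all tested genes the log2 fold had a median of 0.22, so folds are given relative to it, and each count is also given after median-of-ratios scaling of the libraries, which brought that median to -0.01. Adjusted p-values belong to the deposited values unless scaling is named. The labels do not say whether libraries came from separate cultures, so p-values reflect the spread among libraries, possibly a technical one. In bulk RNA, fewer cells with a transcript and less of it per cell cannot be told apart.

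Of 36 tested subunits, 2 were higher in the ISLR-labelled libraries (NDUFS1, NDUFA8) and 8 were lower (NDUFV1, NDUFA1, NDUFA2, NDUFA12, NDUFB3, NDUFB6, NDUFC2 and NDUFS5). Over all tested genes, 45.9% were called, 38.5% as higher and 7.38% as lower. These shares are also the background of the later limma counts on the deposited scale. The median relative log2 fold of the subunits was -0.31, with a range of -0.53 to 0.27, and 33 of 36 lay below 0. At an unadjusted p under 0.05, 5 were higher and 13 lower, against 44.4% and 9.63% of all tested genes, which is also the background of the other unadjusted counts. All 3 ISLR-labelled libraries lay above all 3 NC-labelled ones for 4 subunits and below them for 15, and the groups overlapped for 17; over all tested genes these shares were 46.3% above and 10.5% below. The count of lower subunits was 4 without ISLR library 3 and 5 without NC library 2. The count of higher ones was 4 without NC library 3.

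After scaling, 1 subunit was higher (NDUFS1) and 29 were lower, against 17.2% and 21.3% of all tested genes (38.5% in either direction). Those shares are likewise the background of the later scaled counts. The 8 subunits lower on the deposited scale were all among those 29, and the other 21 were not called before scaling. The median scaled log2 fold of the subunits, with the median of all genes not taken off, was -0.36. For 10 subunits and 1 NDUFAF gene the log2 fold was above 0 as deposited and below 0 after scaling. Short and strongly expressed genes as a whole stood lower, and both properties are common among subunits, which had a median length of 1347 nt against 3342 nt. With the length trend also removed, 1 subunit was higher and 23 lower (16.4% and 20.4% of all tested genes), at a median log2 fold of -0.23, likewise not relative. With the expression trend removed in its place, 2 were higher and 12 lower (17.2% and 15.8% of all tested genes), at a median of -0.11.

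**Figure D2:**
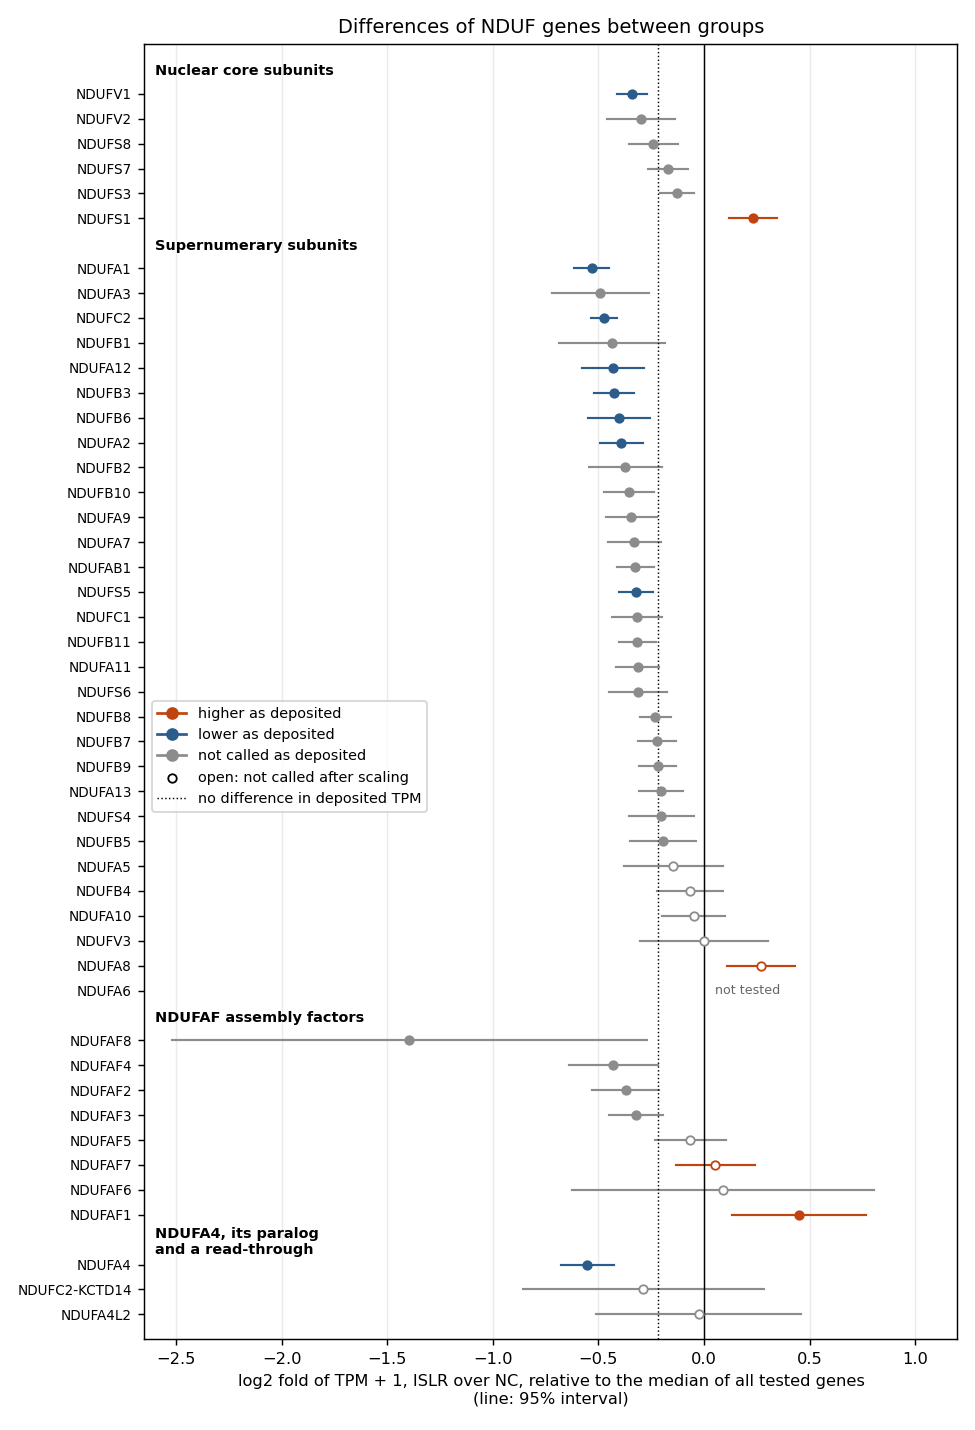
Log2 fold of TPM + 1 (ISLR over NC) of the members drawn relative to the median of all tested genes, with 95% intervals from limma in which that median is taken as fixed. NDUFA8 and NDUFS1 lie to the right of 0 among the subunits (0.27 and 0.23), most others between -0.53 and -0.05, and the interval of NDUFAF8 is the widest.

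The 7 nuclear core subunits did not move as one. NDUFS1, the largest subunit, which carries several iron-sulphur clusters (chr2:206114817-206159603, minus strand, in GENCODE 29 on GRCh38, as for all genes here), stood at 45.8, 43.6 and 46.6 TPM in ISLR-labelled libraries, against 33.0, 32.4 and 33.3 TPM in NC-labelled ones. Every ISLR-labelled library lay above every NC-labelled one. Its relative log2 fold was 0.23 (limma adjusted p = 0.000562; 0.0175 after scaling), and 0.0817 with the length trend also removed. NDUFV1, which binds NADH and the flavin, was lower, at 201.6, 208.8 and 205.3 TPM in ISLR-labelled libraries, against 219.3, 223.5 and 227.7 TPM in NC-labelled ones. These groups did not overlap either, and its relative log2 fold was -0.34 (limma adjusted p = 0.0142; 0.000186 after scaling). Without NC library 3 its adjusted p was 0.0523.

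NDUFV2, NDUFS3, NDUFS7 and NDUFS8 were not called on the deposited scale. NDUFV2, partner of NDUFV1 at the NADH end, averaged 45.4 ± 2.83 TPM in ISLR-labelled libraries and 48.1 ± 3.15 TPM in NC-labelled ones (SD, n = 3 each), with a relative log2 fold of -0.30. NDUFS7, which lines the ubiquinone pocket, had a relative log2 fold of -0.17. NDUFS3 had -0.13 and NDUFS8, which carries iron-sulphur clusters beside that pocket, -0.24. For NDUFS3 and NDUFS7 the deposited log2 fold was above 0 (0.09 and 0.05) and the scaled one below 0 (-0.17 and -0.22), and both were called lower after scaling but not before (limma adjusted p = 0.00831 and 0.0028). After scaling, 1 core subunit was higher and 5 were lower, at a median relative log2 fold of -0.17 before scaling.

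Supernumerary subunits made up most of the lower ones, as they did of all tested subunits (29 of 36). Limma called 1 of the 29 higher and 7 lower, against 38.5% and 7.38% of all tested genes. After scaling none was higher and 24 were lower, against 17.2% and 21.3%. At an unadjusted p under 0.05 before scaling, 2 were higher and 12 lower. Their median relative log2 fold was -0.32. NDUFA1, a small membrane-anchored subunit encoded on the X chromosome (chrX:119871487-119876662, plus strand), had the lowest fold of the subunits. It stood at 424.9, 438.6 and 443.8 TPM in ISLR-labelled libraries, against 532.1, 528.0 and 568.4 TPM in NC-labelled ones. No ISLR-labelled library reached the level of an NC-labelled one, and the relative log2 fold was -0.53 (95% interval -0.62 to -0.45, limma adjusted p = 0.000667). NDUFC2, another small membrane subunit (chr11:78068304-78080219, minus strand), stood at 321.7, 335.4 and 329.9 TPM in ISLR-labelled libraries, against 389.6, 395.8 and 394.1 TPM in NC-labelled ones. The groups were again apart, at a relative log2 fold of -0.47 (limma adjusted p = 0.000493). NDUFC2 shares 431 exonic bases with the read-through NDUFC2-KCTD14, which was not called (21.1 ± 7.03 TPM in ISLR, 21.4 ± 2.11 in NC).

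Among the NDUFA genes, 1 of 11 was higher and 3 were lower (0 and 8 after scaling; 2 and 5 at an unadjusted p under 0.05 before it). NDUFA8, a subunit with twin CX9C motifs facing the intermembrane space (chr9:122144058-122159819, minus strand), had the highest fold of all subunits. It stood at 99.3, 89.02 and 96.8 TPM in ISLR-labelled libraries, against 68.5, 72.5 and 62.0 TPM in NC-labelled ones. The lowest ISLR-labelled library lay above the highest NC-labelled one, and the relative log2 fold was 0.27 (limma adjusted p = 0.00152; 0.0536 after scaling). NDUFA12, whose paralog is the assembly factor NDUFAF2, had 149 ± 13.2 TPM in ISLR-labelled libraries and 172 ± 4.20 TPM in NC-labelled ones (relative log2 fold -0.43, limma adjusted p = 0.0272). It was not called when ISLR library 2 or 3, or NC library 1 or 2, was left out (adjusted p = 0.0659 to 0.0854). NDUFA2, which has a thioredoxin-like fold at the NADH end, had 115 ± 5.25 TPM in ISLR-labelled and 129.8 ± 3.01 TPM in NC-labelled libraries (-0.39, limma adjusted p = 0.0145), and 0.0503 without ISLR library 3.

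NDUFA3, a small subunit of the membrane arm, missed the threshold although its groups did not overlap. It stood at 75.6, 70.5 and 73.9 TPM in ISLR-labelled libraries, against 81.2, 82.4 and 104.8 TPM in NC-labelled ones, the third of which was well above the rest. Its relative log2 fold was -0.49 (limma adjusted p = 0.0549; 0.00475 after scaling). It passed without NC library 1 or 3 (adjusted p = 0.0416 and 0.0491). NDUFA10, a relative of nucleoside kinases, had a relative log2 fold of -0.05 and was not called on either scale. Its deposited log2 fold was 0.17, with all ISLR-labelled libraries above all NC-labelled ones, and without NC library 2 it was called higher (log2 fold 0.23, limma adjusted p = 0.0233). Its scaled log2 fold was -0.09.

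Among the 11 NDUFB genes, which build the far end of the membrane arm, limma called none higher and 2 lower, and after scaling 0 and 10. At an unadjusted p under 0.05 before scaling, 0 were higher and 4 lower. NDUFB3 averaged 106 ± 2.82 TPM in ISLR-labelled libraries and 123 ± 4.37 TPM in NC-labelled ones (relative log2 fold -0.43, limma adjusted p = 0.00545). NDUFB6 averaged 40.8 ± 2.15 TPM (ISLR) and 46.5 ± 2.52 TPM (NC) (-0.40, limma adjusted p = 0.0444), and was called without NC library 1 but not when any other library was left out (adjusted p = 0.0501 to 0.132). NDUFB1 was not called before scaling (-0.44), with 159.8 TPM in 1 ISLR-labelled library, below the other 5. NDUFB4 (-0.07) was called on neither scale, but was higher without NC library 3 (limma adjusted p = 0.0265).

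Of NDUFC1 and NDUFC2 the second was lower, and both were lower after scaling. Of NDUFS4, NDUFS5, NDUFS6, NDUFV3 and NDUFAB1, limma called 1 lower and none higher, and after scaling 4 lower (0 higher and 2 lower at an unadjusted p under 0.05 before scaling). The called one was NDUFS5, another twin CX9C subunit, named here after its values were seen, at 693 ± 14.5 TPM in ISLR-labelled libraries and 745 ± 29.9 TPM in NC-labelled ones (relative log2 fold -0.32, limma adjusted p = 0.0422), and its call was lost when any library other than NC library 3 was left out (0.0557 to 0.115) and with the expression trend removed (0.511). NDUFV3 had a relative log2 fold of 0.00 and was not called on either scale.

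NDUFAF genes, named as assembly factors, had a far lower median level than the subunits. It was 21.8 TPM in ISLR-labelled libraries and 22.9 TPM in NC-labelled ones. NDUFAF3, at 209 TPM (ISLR) and 225 TPM (NC), lay above the subunit medians of 164 TPM (ISLR) and 182 TPM (NC). Limma called 2 of 8 higher (NDUFAF1, NDUFAF7) and none lower, against 38.5% and 7.38% of all tested genes. At an unadjusted p under 0.05, 2 were higher and 2 lower. After scaling, 1 was higher (NDUFAF1) and 4 were lower (NDUFAF2, NDUFAF3, NDUFAF4 and NDUFAF8), against 17.2% and 21.3% of all tested genes. Without ISLR library 2, 2 were lower on the deposited scale. Their median relative log2 fold was -0.19, with a range of -1.39 to 0.45 that was wider than that of the subunits. Whether subunits and assembly factors differ in fold was not tested.

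NDUFAF1, part of the complex that builds the membrane arm (chr15:41387349-41402519, minus strand), stood at 10.6, 9.54 and 8.22 TPM in ISLR-labelled libraries, against 5.54, 4.74 and 6.52 TPM in NC-labelled ones. The lowest ISLR-labelled library lay above the highest NC-labelled one. Its relative log2 fold was 0.45 (95% interval 0.13 to 0.77, limma adjusted p = 0.00629; 0.0424 after scaling), and it was not called with the expression trend removed (0.0831). NDUFAF7, a methyltransferase, averaged 14.7 ± 0.557 TPM in ISLR-labelled libraries and 12.0 ± 0.962 TPM in NC-labelled ones. Its deposited log2 fold of 0.27 was called higher (limma adjusted p = 0.0287), at a relative log2 fold of 0.05. That call was lost after scaling (0.825) and when any library other than NC library 3 was left out (0.0546 to 0.0849).

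NDUFAF8, which stabilises NDUFAF5, had the lowest fold and the widest limma interval of the tested members (chr17:81239239-81241281, plus strand). It stood at 28.4, 64.7 and 31.2 TPM in ISLR-labelled libraries, against 126.2, 56.9 and 96.9 TPM in NC-labelled ones. ISLR library 2 lay above NC library 2, so the groups overlap. The relative log2 fold was -1.39 with a 95% interval of -2.52 to -0.27. The deposited log2 fold of -1.18 was not called (limma adjusted p = 0.0828). It was called after scaling (0.0495), and on the deposited scale without ISLR library 2 (0.0365).

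NDUFAF3 and NDUFAF4, partners that act early on the arm that reduces ubiquinone, had relative log2 folds of -0.32 and -0.43. NDUFAF3 passed without ISLR library 2 (limma adjusted p = 0.0425) and NDUFAF4 without NC library 2 (0.0284). NDUFAF2, the paralog of NDUFA12, had -0.37, at 52.0 ± 1.39 TPM in ISLR-labelled libraries and 58.1 ± 5.06 TPM in NC-labelled ones. NDUFAF5, which hydroxylates an arginine of NDUFS7, had -0.07 and was called on neither scale. NDUFAF6 stood at 10.1, 10.9 and 23.1 TPM in ISLR-labelled libraries, against 11.5, 11.3 and 10.1 TPM in NC-labelled ones. ISLR library 3 alone was high, and the deposited log2 fold of 0.31 was -0.05 without it.

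NDUFA4, formerly counted with complex I and now with cytochrome c oxidase, stood at 59.1, 52.7 and 56.0 TPM in ISLR-labelled libraries, against 68.4, 71.5 and 72.5 TPM in NC-labelled ones. The groups did not overlap, at a relative log2 fold of -0.55 (limma adjusted p = 0.00252; 0.00045 after scaling). Its paralog NDUFA4L2, known as inducible by low oxygen, stood at 1.37 ± 0.195 TPM (ISLR) and 1.12 ± 0.567 TPM (NC) and was not called. The non-coding NDUFA6-DT, which shares 25 exonic bases with NDUFA6 on the opposite strand, averaged 3.52 ± 0.750 TPM (ISLR) and 2.51 ± 0.565 TPM (NC) and was not called either.

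All sums here are of deposited TPM, and scaling would lower ISLR-labelled sums relative to NC-labelled ones. Summed over subunits, the core genes held 1042, 1056 and 1094 TPM in ISLR-labelled libraries, against 1028, 1065 and 1055 TPM in NC-labelled ones. These groups overlapped. The 30 supernumerary genes held 6597, 6825 and 6639 TPM in ISLR-labelled libraries, against 7014, 7212 and 7158 TPM in NC-labelled ones. All ISLR-labelled libraries lay below all NC-labelled ones, at a ratio of means of 0.938. The 37 subunits together made up 0.785 ± 0.0118% of listed TPM in ISLR-labelled libraries and 0.830 ± 0.0117% in NC-labelled ones (SD, n = 3 each).

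NDUFAF3 made up the largest part of the NDUFAF sum, at means of 209 TPM (ISLR) and 225 TPM (NC). The 8 NDUFAF genes held 371.4, 418.5 and 365.7 TPM in ISLR-labelled libraries, against 485.8, 408.2 and 458.7 TPM in NC-labelled ones. These groups overlap. The ratio of means was 0.854, and 0.961 without NDUFAF8, a choice made after its values were seen. As a percentage of the subunit sum, the NDUFAF sum was 4.86, 5.31 and 4.73 in ISLR-labelled libraries, against 6.04, 4.93 and 5.59 in NC-labelled ones. Without NDUFAF8 it was 4.49, 4.49 and 4.32 in ISLR-labelled libraries, against 4.47, 4.24 and 4.41 in NC-labelled ones. On the deposited scale, 1 gene of 8 thus carried most of the distance between the group sums. After scaling, NDUFAF2, NDUFAF3 and NDUFAF4 also stood lower (log2 folds of -0.41, -0.37 and -0.47) and NDUFAF1 higher (0.44). So this need not hold for scaled sums, which were not made.

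**Figure D3:**
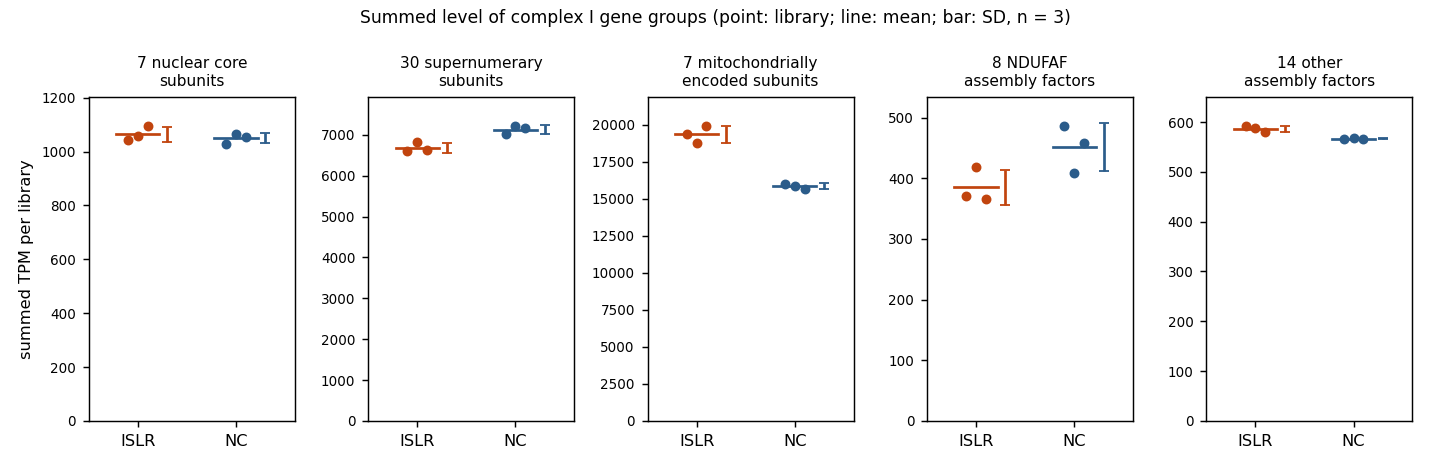
Summed TPM, as deposited and not scaled, of 5 groups of complex I genes in each library (points), with mean and SD (n = 3). ISLR-labelled libraries are left of NC-labelled ones. Supernumerary subunits are lower in all ISLR-labelled libraries (6597 to 6825 TPM, against 7014 to 7212 in NC-labelled ones), and mitochondrially encoded subunits are higher (means of 19349 TPM in ISLR and 15855 TPM in NC).

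Counts for other genes of the pathway are set beside those of the nuclear subunits. Of 7 mitochondrially encoded complex I subunits, limma called 6 higher and none lower, against 38.5% and 7.38% of all tested genes. After scaling 4 were higher and 1 lower, against 17.2% and 21.3%. At an unadjusted p under 0.05 before scaling, 6 were higher and 0 lower. MT-ND1 averaged 1226 ± 16.9 TPM in ISLR-labelled libraries and 561.6 ± 24.1 TPM in NC-labelled ones (relative log2 fold 0.91). MT-ND2 had 0.57, MT-ND4L 0.01 and MT-ND4 -0.19. The deposited log2 folds of MT-ND4L and MT-ND4 were above 0, and the scaled ones were -0.04 and -0.24. With the expression trend also removed all 7 were higher and none lower by limma, MT-ND4L at a log2 fold of 0.40 (adjusted p = 0.0012) and MT-ND4 at 0.18 (0.00284). With the length trend removed in its place 5 were higher and 1 lower. As deposited, the 7 genes summed to 19349 ± 568 TPM in ISLR-labelled libraries and 15855 ± 182 TPM in NC-labelled ones, a ratio of 1.22. Scaling divides each library by a size factor, from 1.08 to 1.12 (ISLR) and from 0.907 to 0.925 (NC). It would narrow the distance between these sums, and scaled sums were not made. The difference between nuclear and mitochondrially encoded subunits was not tested.

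Of 14 assembly factors named otherwise, limma called 7 higher and 3 lower, against 38.5% and 7.38% of all tested genes. Once scaled, 2 were higher and 5 lower, against 17.2% and 21.3%. Their median relative log2 fold was -0.05. TMEM186, known as a component of the complex that also holds NDUFAF1, had the highest fold, at 11.5 ± 0.575 TPM in ISLR-labelled libraries and 4.05 ± 0.372 TPM in NC-labelled ones (1.09, limma adjusted p = 0.000152). CHCHD4, which oxidises twin CX9C proteins on import, had 0.39. TMEM126A and TMEM126B, both needed for the membrane arm, were the lowest with -0.97 and -0.52 (limma adjusted p = 0.000563 and 0.0352). The call of TMEM126B, known as a partner of NDUFAF1 and TMEM186, was lost when any library other than NC library 2 was left out (0.0523 to 0.109).

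Of 38 nuclear subunits of complexes II to V, 1 was higher and 19 lower by limma, against 38.5% and 7.38% of all tested genes. After scaling 0 were higher and 34 lower, against 17.2% and 21.3%. At an unadjusted p under 0.05 before scaling these were 1 and 24. Their median relative log2 fold was -0.36. UQCR11 was the higher one as deposited, with a scaled log2 fold of -0.11, and UQCRC1, not called, had 0.10 as deposited and -0.16 after scaling. The lowest were ATP5MC1 (-0.71) and COX7B (-0.55), and the highest UQCR11 (-0.06) and UQCRC1 (-0.12). The complex I subunits, at a median of -0.31, were not tested against these genes. Of 8 tested regulators of nuclear respiratory genes, 4 were higher and none lower by limma, against the same 38.5% and 7.38%. At an unadjusted p under 0.05 these were also 4 and 0. After scaling 2 were higher and none lower, against 17.2% and 21.3%. PPARGC1B had 0.50 and PPRC1 0.30, both co-activators, while TFAM had -0.10 and YY1 -0.14, neither called on either scale.

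Genes of like length and level are set beside the members, since folds over all tested genes shifted with both. Among the decile of tested genes with the highest mean level (from 84.9 TPM), which held 25 subunits, the median relative log2 fold was -0.24, and -0.32 for those 25. In that decile, 27.5% of genes were lower as deposited and 70.4% after scaling. Among the shortest decile (up to 1053 nt), which held 14 subunits, the median was also -0.24, and -0.33 for those 14. Across the 36 subunits, which share libraries and one fit, the relative log2 fold had Pearson r of 0.45 and Spearman rho of 0.42 with log2 length. With log2 mean TPM they were -0.34 and -0.28. The part of length and level in the results was not tested.

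**Figure D4:**
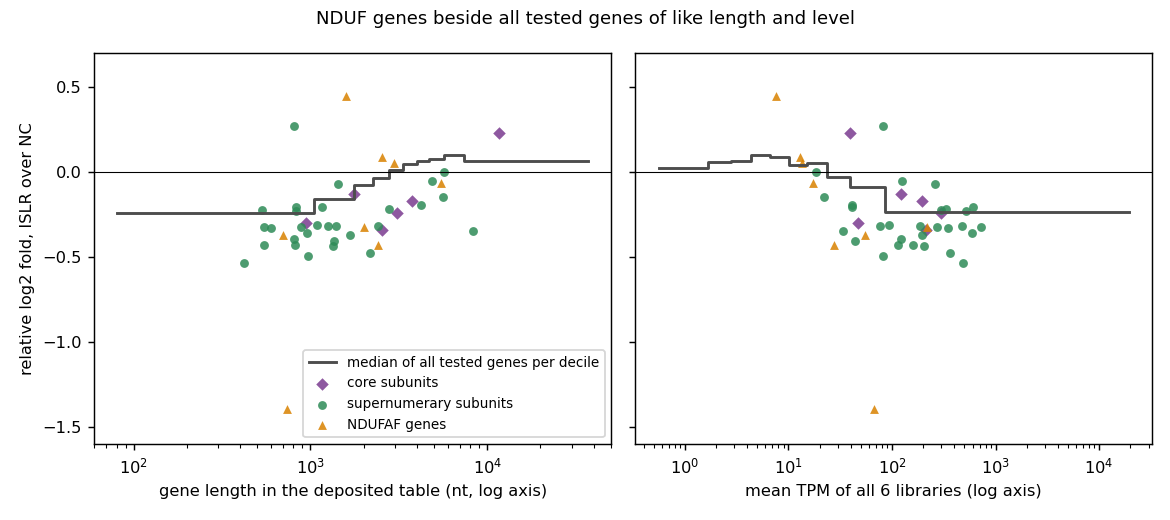
Relative log2 fold (ISLR over NC) of the members drawn against gene length and mean TPM (log axes); the step line is the median of all tested genes in each decile. Most subunits lie near or below the line, which itself reaches -0.24 among the shortest and the most expressed genes, and NDUFA8, NDUFS1 and NDUFAF1 lie above it.

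In the authors' deposited table, which holds a separate test, 34 of 36 subunits passed an adjusted p of 0.05, and mean TPM was higher in the ISLR-labelled libraries for 10 of them and lower for 24. Of the NDUFAF genes 5 of 8 passed, 1 higher and 4 lower. Over all tested genes these shares were 32.9% higher and 18.3% lower. Subunits that did not pass were NDUFA8 (authors' adjusted p = 0.0825), called higher by limma as deposited, and NDUFV3 (0.731). NDUFAF7, also called higher by limma as deposited, did not pass (0.433). The authors' deposited table gives no fold, so the direction is that of the mean TPM and may not be that of its test, and it marks none of these members as significant by its own rule. Exonic bases were shared with another gene in GENCODE 29 by 28 of 49 members, among them NDUFA1, NDUFA3, NDUFC2, NDUFS1 and NDUFV1. Whether reads were counted by strand could not be learned from the sources used here, so reads of such neighbours could not be told apart.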

How the data were processed

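RNA-seq of 6 HEK293FT libraries was used, 3 labelled ISLR and 3 labelled NC, with each column matched by its title. The deposited table holds TPM per gene and library, made by the authors. The authors also deposited p-values and adjusted p-values from their own test, with input and settings not given in the sources used. A gene length in nucleotides, used for the length trend, is deposited too. HISAT2, Cufflinks and RSEM are named, with GRCh38.p10, per the submitters' processing notes, without roles. Library totals lie close together by construction of TPM (984557 to 987784), which hides depth, so counting error has no interval here. The groups were apart in the size factors of the scaling, at 1.08 to 1.12 (ISLR) and 0.907 to 0.925 (NC). Genes at 1 TPM or more numbered 14004 to 14092 in ISLR-labelled libraries and 13365 to 13470 in NC-labelled ones. The cause of this split was not tested.

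Of 58884 listed genes (1 blank row left out), the 13869 that reached 1 TPM in 3 or more libraries were tested, on log2(TPM + 1), with limma 3.58.1 in R 4.3.3 (trend and robust, group as the only term, two-sided, no minimum fold). A length or expression trend was removed by lowess (span 0.3) after median-of-ratios scaling. The fit was tested on simulated data. Members and lists were chosen with earlier results of these data known, so no list was tested. Named by rule were the 7 core subunits, NDUFA4, NDUFA4L2, all NDUFAF genes, the 8 lowest and 4 highest supernumerary folds, and the 2 highest and 2 lowest of each other list. Gene positions are from GENCODE 29, promoters from RefSeq (GRCh38.p14), using the first listed window of a gene. Python 3.11.15 with matplotlib 3.10.9 drew the figures. One gene named by the rule is not reported here or drawn by itself, but stays in counts and sums. The alternatives are given in the closing section.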

Additional observations from a re-analysis of the deposited data

How the results depend on the processing

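As deposited, 2 subunits were higher and 8 lower, 2 NDUFAF genes were higher and 0 lower, and the median relative log2 folds were -0.31 (subunits) and -0.19 (NDUFAF genes). The medians given here are relative to that of all tested genes under the same setting. Median-of-ratios scaling gave 1 and 29 subunits, 1 and 4 NDUFAF genes, and a subunit median of -0.35. With the length trend also removed these were 1 and 23, 1 and 3, and -0.21. With the expression trend removed in its place, 0 NDUFAF genes were higher and 2 lower, with medians of -0.105 (subunits) and -0.11 (NDUFAF genes). Quantile normalization gave 13 lower subunits, 0 higher and 2 lower NDUFAF genes, and medians of -0.11 and -0.11. Without a filter 5 subunits were lower and 1 NDUFAF gene was higher, with medians of -0.16 and -0.0436. An adjusted p under 0.01 left 3 lower subunits and 1 higher NDUFAF gene, and limma without trend and robust left 3 lower subunits, ending the calls of NDUFV1, NDUFA2, NDUFA12, NDUFB6 and NDUFS5 (adjusted p = 0.0557 to 0.184). Pseudocounts of 0.1 and 5 moved the subunit median to -0.34 and -0.23. By the authors' deposited table and the mean TPM, 10 subunits were higher and 24 lower, and 1 NDUFAF gene was higher and 4 lower. These directions are of the mean TPM and may not be those of the authors' test.

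With a library left out, 2 to 4 subunits were higher and 4 to 9 lower, 1 to 2 NDUFAF genes were higher and 0 to 2 lower, and the medians ran from -0.31 to -0.28 (subunits) and from -0.26 to -0.17 (NDUFAF genes). Among genes called on either side, the log2 fold changed sign after scaling for NDUFS3 (-0.17) and NDUFS7 (-0.22, and -0.25 with the length trend removed), and with the expression trend removed for NDUFAF7 (-0.0052). It also did so after scaling for MT-ND4 (-0.2391, and -0.0972 with the length trend removed), MT-ND4L (-0.04) and UQCR11 (-0.1094), and with the length trend removed for YY1 (-0.2547). Without a call on either scale it changed sign after scaling for NDUFA10 (-0.0946), NDUFB4 (-0.1136), NDUFV3 (-0.032), NDUFAF5 (-0.0978), UQCRC1 (-0.1645), TFAM (-0.1354) and YY1 (-0.1744), among others. With the expression trend also removed MT-ND4 (0.1785) and MT-ND4L (0.3967) were above 0. The cause of these changes was not tested. The labels do not say whether same-numbered libraries belong together. Their deviations from the group means correlated at 0.02, 0.047 and -0.056, which cannot show whether they shared a culture or a day. The replicate block gave 3 higher and 9 lower subunits and 1 higher and 1 lower NDUFAF gene, with medians of -0.31 and -0.19. The unknown depth limits what can be said of NDUFA6 and NDUFA4L2, which lie near 1 TPM.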
